A study of Tribolium castaneum with 6 samples.

Results

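The transcription factors of the ecdysone response were followed in larvae of the red flour beetle *Tribolium castaneum* (strain GA-1), as a reading of the stage in the moulting cycle. Of 13 factor names looked for among the gene names of the deposited tables, ignoring case, 2 were present, *Ecr* with 8 transcripts and *Usp* with 4, out of 15099 genes and 31944 transcripts. Another 10 factors with 61 transcripts carry other identifiers in the tables and were matched through the reference gene table, or, for *br*, through the entry *Br-c* (Broad-Complex). No row was matched for RXR. The 12 factor genes thus hold 73 transcripts, and all 12 had a mean FPKM of at least 1 and entered the test.

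RNA-Seq was carried out on 3 libraries from larvae injected with dsTcAMPKα, double-stranded RNA against the catalytic subunit of the energy sensor kinase AMPK, and on 3 libraries from larvae injected with dsEGFP, double-stranded RNA of a fluorescent protein gene that the beetle lacks. Larvae of both groups were 20 days old when about 200 ng of double-stranded RNA in 200 nL was injected, and each sample pooled 10 unsexed whole larvae 6 days later. No source used here says at which point of the moulting cycle the larvae were collected. The targeted gene, *Snf1a* in the tables, had 10.7, 7.32 and 16.3 FPKM in the dsTcAMPKα libraries and 77.3, 74.9 and 56.9 FPKM in the dsEGFP libraries.

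A pulse of the steroid 20-hydroxyecdysone starts each moult of an insect. The hormone binds a heterodimer of the nuclear receptors EcR and Usp, which turns on early genes such as *E74*, *E75* and *br*, then early-late genes such as *E78*, *Hr3* and *Hr4*, and, after the pulse has declined, the prepupal factor gene *ftz-f1*. In *Drosophila*, HR3 is needed for the later expression of *ftz-f1*, so that the levels of these genes mark successive phases of a moult.

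Among the 12 factors, *Hr3* and *E78* were lower in the dsTcAMPKα group, and no factor was called higher. A gene was called where limma gave an adjusted p value below 0.05 together with a log2 fold change beyond 1 in size on the log2(FPKM + 1) scale, where low FPKM give a fold change that is too small. This held for 2 of the 12 factors, for 0 of the 2 genes found by name, and for 6.80% of the 10981 genes tested, or 2.71% counting only genes lower in dsTcAMPKα. Without dsTcAMPKα replicate 1, 2 or 3 or dsEGFP replicate 2, 0 of the 12 factors and 0, 0, 34 or 77 of all genes were called, and without dsEGFP replicate 3, 1198 genes. Of the factors, 4 had an unadjusted limma p under 0.05 (*Hr3*, *E78*, *Hr4* and *Hr39*), with neither *Ecr* nor *Usp* among them, against 36.5% of all tested genes, and limma-voom on estimated reads called 1. The median log2 fold change was 0.19 over the 12 factors and 0.20 over all tested genes. All 3 dsTcAMPKα libraries lay below all 3 dsEGFP libraries for *Hr3*, *E78* and *Hr4*, 3 of 12 factors against 13.6% of tested genes, and above them for *Hr39*, 1 of 12 factors against 31.2% of tested genes.

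**Figure D1:**
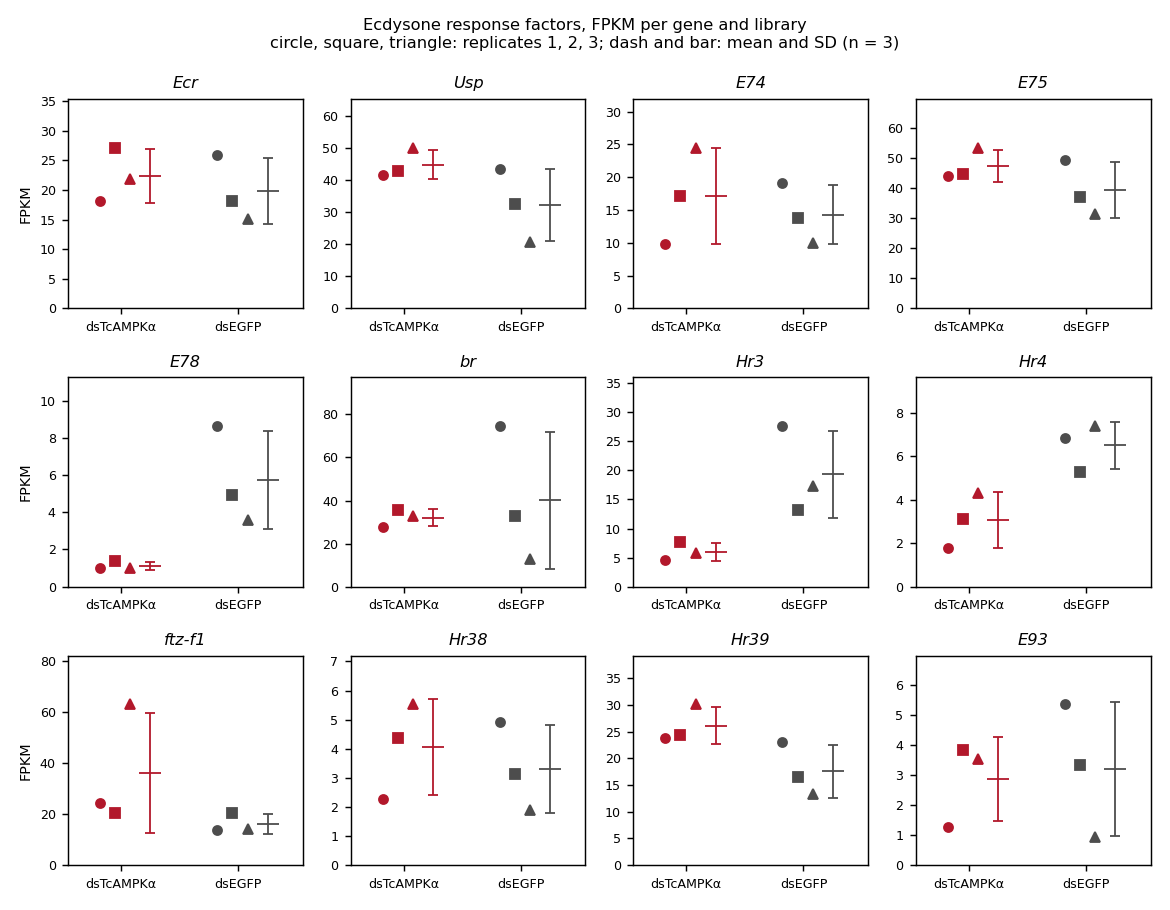
FPKM of the 12 factor genes (vertical axes, each from 0) in the 3 dsTcAMPKα libraries (red, left) and the 3 dsEGFP libraries (grey, right), with the mean and SD beside the points. The groups are apart for Hr3, E78, Hr4 and Hr39 and overlap for the other 8 genes.

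The early-late receptor gene *Hr3* (LOC663422, with 6 transcripts between 11610356 and 11668950 of Tcas5.2 sequence NC_007422.5) reached 4.58, 7.65 and 5.72 FPKM in the dsTcAMPKα libraries, against 27.7, 13.1 and 17.3 FPKM in the dsEGFP libraries. The highest dsTcAMPKα library was below the lowest dsEGFP library. The log2 fold change was -1.51 ± 0.30 (SE; limma-adjusted p = 0.0293). Without dsTcAMPKα replicate 1, 2 or 3 or dsEGFP replicate 2 the call was lost, with adjusted p values of 0.110, 0.102, 0.101 and 0.0702. The study had itself listed *Hr3* and *Hr4* as changed in these same libraries, so that their change here is not independent evidence.

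Within *Hr3*, the transcript with the most upstream start, rna16620, was near 0 in the dsTcAMPKα group. It had 0.058, 0.251 and 0 FPKM in the dsTcAMPKα libraries and 15.6, 1.53 and 6.85 FPKM in the dsEGFP libraries. This start gave 1.28%, 3.28% and 0% of the *Hr3* signal in the dsTcAMPKα libraries and 56.2%, 11.6% and 39.7% in the dsEGFP libraries. The shares did not overlap, at the smallest p that an exact permutation test of 3 against 3 allows, 0.1 (two-sided), and the transcript itself did not pass the limma test (log2 fold change -2.65, adjusted p = 0.0779). Shares of the start of rna20830 in *E75* and of starts in *br* did not overlap between the groups either. How often this holds over all genes was not measured. The other transcript starts of *Hr3* overlapped between the groups in their shares. In FPKM, however, MSTRG.8770.4 was also lower without overlap and without a call (limma-adjusted p = 0.141). It had 1.24, 2.65 and 2.14 FPKM in the dsTcAMPKα libraries and 7.34, 5.58 and 2.94 FPKM in the dsEGFP libraries. So was rna16623, which had no more than 0.291 FPKM in any library, while rna16621, rna16622 and MSTRG.8770.6 overlapped. Reads of *Hr3* and of LOC103313687, which lies antisense to it, cannot be told apart because the sources do not describe a stranded library, but LOC103313687 itself was listed at no more than 0.640 FPKM in any library.

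*Hr4* (LOC663168), which encodes a further early-late nuclear receptor, had 1.76, 3.12 and 4.33 FPKM in the dsTcAMPKα libraries and 6.81, 5.29 and 7.40 FPKM in the dsEGFP libraries. Its groups did not overlap, but the gene missed both thresholds, with a log2 fold change of -0.92 ± 0.28 (SE; limma-adjusted p = 0.0656). It was called with median-ratio scaling of the libraries (log2 fold change -1.11, adjusted p = 0.0428). The 3' end of *Hr4* overlaps the gene LOC663141.

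*E78* (LOC655046 in the tables, *Eip78C* in the reference) encodes an early-late nuclear receptor. It had 0.986, 1.38 and 1.01 FPKM in the dsTcAMPKα libraries and 8.66, 4.94 and 3.60 FPKM in the dsEGFP libraries (log2 fold change -1.60 ± 0.30 SE, limma-adjusted p = 0.0273). The call rested on MSTRG.3691.1, a single exon of 485 nt with no strand, assembled 1375 bases downstream of the annotated end and given the same gene name.

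The block MSTRG.3691.1 had 0.213, 0.342 and 0.173 FPKM in the dsTcAMPKα libraries and 4.63, 2.28 and 3.44 FPKM in the dsEGFP libraries. Of the 73 factor transcripts, 36 were tested and this was the 1 called (log2 fold change -1.81, adjusted p = 0.0404 from limma), against 2.56% of the 18283 transcripts tested. Without dsTcAMPKα replicate 1, 2 or 3 or dsEGFP replicate 1 or 2, 0 factor transcripts were called, and without dsEGFP replicate 3, 4 were. The annotated *E78* transcript had 0.772, 1.03 and 0.839 FPKM in the dsTcAMPKα libraries and 4.03, 2.66 and 0.162 FPKM in the dsEGFP libraries, so that dsEGFP replicate 3 lay below every dsTcAMPKα library. Without dsTcAMPKα replicate 1, 2 or 3 or dsEGFP replicate 2 the adjusted p of *E78* was 0.106, 0.103, 0.0985 or 0.0825. With annotated transcripts alone, *E78* had a log2 fold change of -0.56 (adjusted p = 0.502) and was not called, whereas *Hr3* stayed called at -1.69 (adjusted p = 0.0411).

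The gene sum of *Ecr*, the hormone receptor, joined 2 patterns that ran in opposite directions. The sum was 18.1, 27.2 and 21.8 FPKM in the dsTcAMPKα libraries and 26.0, 18.2 and 15.2 FPKM in the dsEGFP libraries, and its log2 fold change of 0.18 (95% confidence interval -0.40 to 0.77, adjusted p = 0.623) gave no call. The 7 annotated transcripts together had 10.5, 15.7 and 18.4 FPKM in the dsTcAMPKα libraries and 9.52, 6.51 and 2.10 FPKM in the dsEGFP libraries. They were higher in every dsTcAMPKα library than in any dsEGFP library, but did not pass the test (log2 fold change 1.31, adjusted p = 0.113).

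The remainder of *Ecr* was MSTRG.10944.1, a single exon of 2947 nt with no strand that lies 268 bases downstream of the annotated 3' end (NC_007424.3, 5570619 to 5573565). It had 7.61, 11.4 and 3.45 FPKM in the dsTcAMPKα libraries and 16.4, 11.7 and 13.1 FPKM in the dsEGFP libraries. The block took 42.1%, 42.1% and 15.8% of the *Ecr* sum in the dsTcAMPKα libraries and 63.3%, 64.3% and 86.1% in the dsEGFP libraries. The shares did not overlap (exact permutation test, two-sided p = 0.1). Among the 4 annotated *Ecr* transcripts tested, rna20562 differed most. It starts at the upstream end of the gene, as rna20563 also does, and had 5.39, 7.73 and 8.02 FPKM in the dsTcAMPKα libraries and 1.58, 2.74 and 0.0622 FPKM in the dsEGFP libraries (adjusted p = 0.0836).

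**Figure D2:**
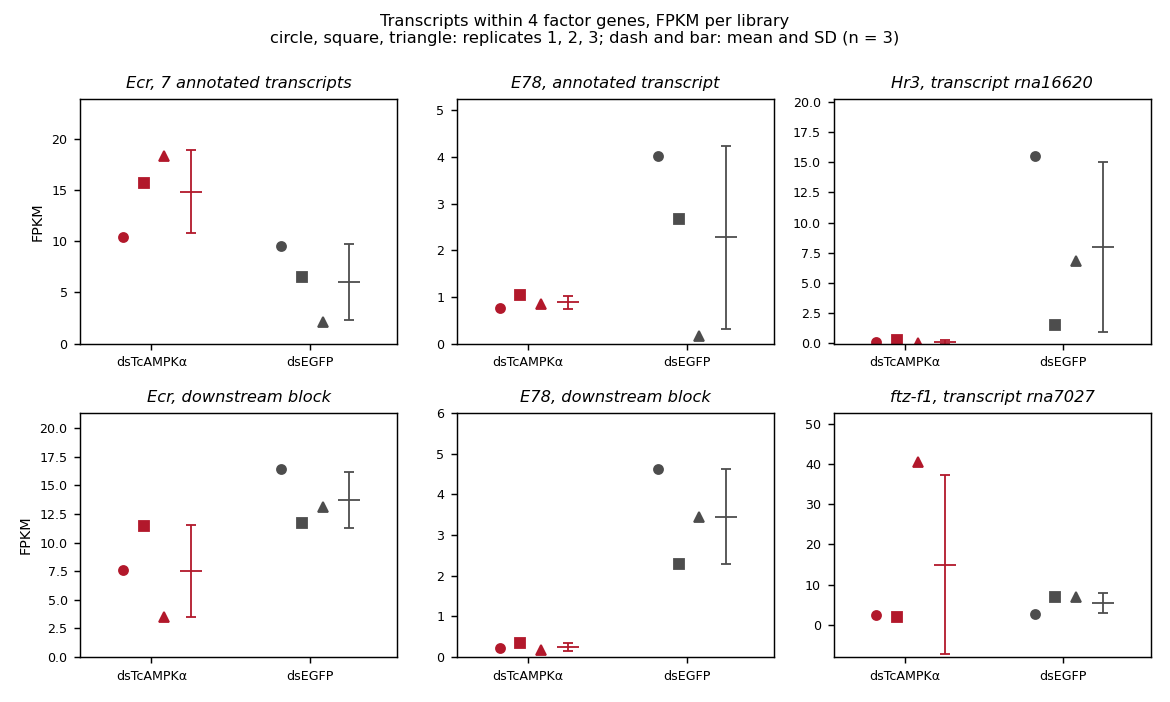
FPKM (vertical axes) of single transcripts, and of the summed annotated Ecr transcripts, in dsTcAMPKα libraries (red, left) and dsEGFP libraries (grey, right), with the mean and SD, whose bars reach below 0 where the SD exceeds the mean. The annotated Ecr transcripts are higher and the block downstream of Ecr is lower in every dsTcAMPKα library than in any dsEGFP library, and rna7027 of ftz-f1 is high in 1 dsTcAMPKα library.

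*Usp*, the partner of EcR in the receptor heterodimer, had 41.7, 42.8 and 50.2 FPKM in the dsTcAMPKα libraries and 43.4, 32.6 and 20.7 FPKM in the dsEGFP libraries (log2 fold change 0.52, 95% confidence interval -0.13 to 1.17, adjusted p = 0.210). The groups overlapped. Its transcript rna10622 took between 82.2% and 87.2% of the sum in every library, and the mean share differed by -0.72 percentage points between dsTcAMPKα and dsEGFP (exact permutation test, two-sided p = 0.8). The sum includes MSTRG.5447.1, a single assembled exon on the opposite strand, at 2.86, 2.82 and 2.77 FPKM in the dsTcAMPKα libraries and 1.95, 1.08 and 1.23 FPKM in the dsEGFP libraries. Of all tested genes with a symbol, *Para*, *Sog*, *nAChRb1*, *Ethr* and *arm2* had the profiles most like that of *Usp* over the 6 libraries, with root mean square differences of 0.0873 to 0.126 in log2(FPKM + 1).

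*ftz-f1* (LOC658929), which encodes the factor that acts after the ecdysone pulse has fallen, had 24.5, 20.4 and 63.2 FPKM in the dsTcAMPKα libraries and 13.6, 20.6 and 14.1 FPKM in the dsEGFP libraries. Its log2 fold change of 0.96 ± 0.43 (SE; limma-adjusted p = 0.155) did not pass, and the groups overlapped. It was 0.48 (adjusted p = 0.264) without dsTcAMPKα replicate 3, and 0.40 (adjusted p = 0.672) with the length correction described below. The high value of dsTcAMPKα replicate 3 came from rna7027, with 40.6 FPKM there and 1.98 to 7.01 FPKM in the other 5 libraries. Transcript rna7025 had 18.9, 14.6 and 20.0 FPKM in the dsTcAMPKα libraries and 7.75, 10.2 and 4.03 FPKM in the dsEGFP libraries (adjusted p = 0.0861).

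The ratio of *ftz-f1* to *Hr3* within a library does not depend on the scaling between libraries. It was 5.35, 2.67 and 11.1 in the dsTcAMPKα libraries and 0.491, 1.56 and 0.814 in the dsEGFP libraries, a comparison chosen after the values were seen. All dsTcAMPKα libraries had more FPKM of *ftz-f1* than of *Hr3*, and so did dsEGFP replicate 2. The groups did not overlap (exact permutation test of the log2 ratio, two-sided p = 0.1, the smallest possible).

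The early genes showed no call. *E75* (LOC660005), a nuclear receptor gene, had 43.9, 44.8 and 53.5 FPKM in the dsTcAMPKα libraries and 49.5, 37.2 and 31.5 FPKM in the dsEGFP libraries (log2 fold change 0.28, adjusted p = 0.342). Most of its signal was rna20830, which took 90.9%, 77.1% and 76.9% of it in the dsTcAMPKα libraries and 66.0%, 76.7% and 76.0% in the dsEGFP libraries. These shares did not overlap (exact permutation test, two-sided p = 0.1). *E74* (LOC655028), an ETS factor gene, had 9.87, 17.1 and 24.5 FPKM in the dsTcAMPKα libraries and 19.0, 13.8 and 10.0 FPKM in the dsEGFP libraries (adjusted p = 0.714).

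Of the 2 starts of *E74* with most signal, the leading one differed between libraries of the same group. The upstream start gave 15.01%, 16.4% and 70.2% of *E74* in the dsTcAMPKα libraries and 69.8%, 36.3% and 0.420% in the dsEGFP libraries. These shares spread widely within each group. Their group means differed by -1.66 percentage points (exact permutation test of the difference in means, two-sided p = 1).

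*br* (21 transcripts) encodes the zinc finger factors of the Broad-Complex, which specify the pupal stage in holometabolous insects. It had 27.8, 35.6 and 32.8 FPKM in the dsTcAMPKα libraries and 74.7, 32.8 and 12.7 FPKM in the dsEGFP libraries, and its log2 fold change was 0.01 (95% confidence interval -1.37 to 1.38, adjusted p = 0.993). The 3 dsTcAMPKα libraries lay inside the range of the dsEGFP libraries. In dsEGFP replicate 1, the assembled transcripts MSTRG.10347.16 and MSTRG.10347.3 reached 31.9 and 17.2 FPKM.

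*E93* (LOC655012), the adult specifier in metamorphosis, had 1.27, 3.82 and 3.53 FPKM in the dsTcAMPKα libraries and 5.37, 3.34 and 0.915 FPKM in the dsEGFP libraries (adjusted p = 0.971). *Hr38* (LOC100142491), which encodes a receptor that can pair with Usp, had 2.26, 4.38 and 5.54 FPKM in the dsTcAMPKα libraries and 4.91, 3.13 and 1.88 FPKM in the dsEGFP libraries (adjusted p = 0.674). Both genes overlapped between the groups. *Hr39* (LOC658947), a relative of *ftz-f1*, had 23.9, 24.3 and 30.2 FPKM in the dsTcAMPKα libraries and 22.96, 16.4 and 13.2 FPKM in the dsEGFP libraries, without overlap and without a call (log2 fold change 0.58, adjusted p = 0.121). This held for the gene sum only, which joins 2 annotated transcripts with the assembled transcript MSTRG.7193.1. The annotated transcripts together overlapped between the groups, and so did MSTRG.7193.1. From its annotated transcripts alone, *Hr39* had a log2 fold change of 0.090 (adjusted p = 0.934). The 5' end of *Hr39* overlaps the gene LOC659099.

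In the dsEGFP group, *Usp*, *Ecr*, *E75*, *E74*, *br*, *Hr38*, *Hr39*, *E93* and *E78* were each highest in replicate 1 and lowest in replicate 3. The SD of *br* was 31.7 FPKM around a mean of 40.1 FPKM in the dsEGFP libraries, against 3.98 FPKM around 32.1 FPKM in the dsTcAMPKα libraries. *Hr3*, *Hr4* and *ftz-f1* did not follow this order. The share of all tested genes in this order was not measured, and the median deviation of long genes, given below, had the same order. A level in these whole larvae cannot separate fewer cells expressing a factor from less RNA per cell.

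Long transcripts differed between the libraries in general. Relative to each gene's mean, the 1734 genes with a most abundant transcript over 3000 nt had a median log2 deviation of 0.36, 0.36 and 0.42 in the dsTcAMPKα libraries and -0.11, -0.41 and -0.55 in the dsEGFP libraries. Of the 12 factors, E74, E75, Hr3, Hr4, Hr38, Hr39 and E93 have a most abundant transcript over this length. That of *Ecr* is the block MSTRG.10944.1 of 2947 nt, whereas its annotated transcript rna20562 has 4018 nt. The length correction was not run on annotated transcripts alone, so the higher sum of annotated *Ecr* transcripts is not corrected for length. With this trend removed, *Hr3* had a log2 fold change of -2.18 (adjusted p = 0.0248) and *Hr4* of -1.56 (adjusted p = 0.0624). The values of *Ecr*, *E74*, *E75*, *br*, *Hr38* and *Hr39* became negative, none of them called. *E93* moved from -0.03 to -0.97 (adjusted p = 0.259), also without a call. When dsEGFP replicate 3 was left out as well, *E93* stood at -1.25 (adjusted p = 0.0712). *E78* was no longer called (log2 fold change -1.07, adjusted p = 0.1498). For *E78* the correction used the 485 nt of the block MSTRG.3691.1, whereas the annotated transcript has 1722 nt.

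**Figure D3:**
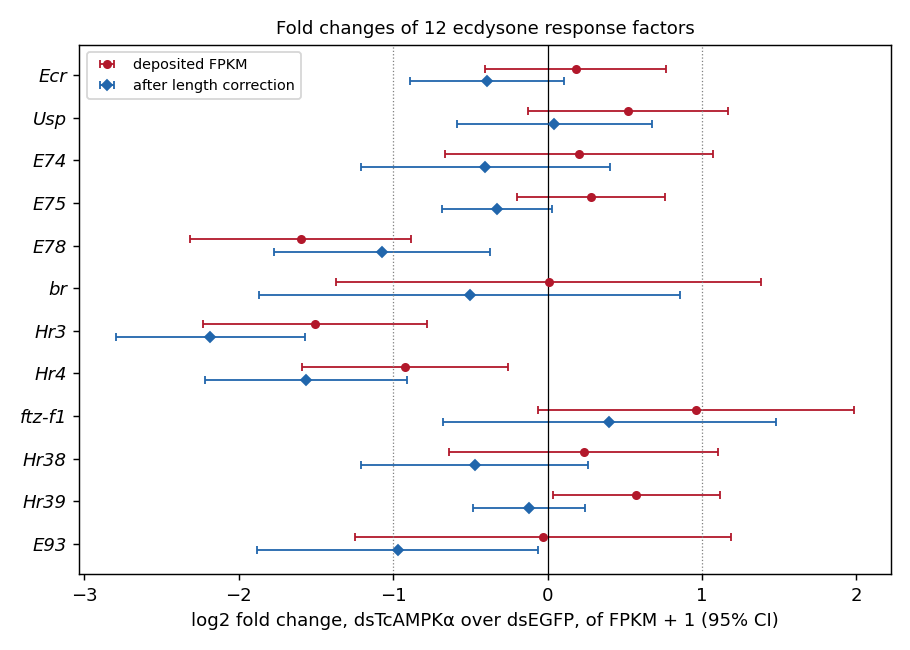
Log2 fold change of FPKM + 1, dsTcAMPKα over dsEGFP (horizontal axis, with 95% confidence intervals and dotted lines at the fold threshold), for the 12 factors, from the deposited FPKM (red circles) and after the length correction (blue diamonds). Hr3 lies below -1 in both, at -1.51 and -2.18, whereas Ecr, E74, E75, br, Hr38 and Hr39 cross 0.

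Lists of genes around the factors were described by their counts. Among the nuclear receptors, 23 of 32 listed names were matched and 16 tested, and 2 were called lower, *Hr3* and *E78*, with a list median log2 fold change of 0.38. None of the 7 tested receptors outside the factors was called by limma or by limma-voom, and 3 of them had an unadjusted p under 0.05, a level met by 36.5% of all tested genes. Of ecdysteroid synthesis and breakdown, only 8 of 20 listed names were matched, and *spo*, *spok*, *phm*, *dib*, *nvd* and *Ptth* were not. None of these 8 genes was called (median log2 fold change -0.30), which leaves the unmatched names unmeasured. Of the ecdysis peptides and their receptors, 9 of 15 names were matched, without *Eth*, and none was called (median -0.15). Of the metamorphosis switch, 7 of 7 names were matched and 6 tested, and none was called (median 0.62). In these lists 1, 2 and 2 genes had an unadjusted limma p under 0.05, and limma-voom called 0 in each. Other settings added calls to these lists. Without dsEGFP replicate 3, 2 ecdysis genes and 1 gene of the metamorphosis switch were called. With median-ratio scaling or quantile normalization 1 ecdysis gene was called, with TPM 2 genes of the metamorphosis switch, and with the length correction and without dsEGFP replicate 3, *sad* of the synthesis list (log2 fold change -1.06, adjusted p = 0.0416).

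For the synthesis list, the largest changes were those of *ed* and *sad*. *sad*, a P450 of ecdysone synthesis in *Drosophila*, had 0.961, 1.78 and 1.78 FPKM in the dsTcAMPKα libraries and 3.08, 3.32 and 1.82 FPKM in the dsEGFP libraries (adjusted p = 0.162). *ed* had 9.35, 8.93 and 11.5 FPKM in the dsTcAMPKα libraries and 10.2, 5.86 and 4.05 FPKM in the dsEGFP libraries (adjusted p = 0.218). In *Drosophila* this symbol belongs to the cell adhesion gene echinoid. *sro*, named after its values were seen, was the 1 gene of this list with an unadjusted limma p under 0.05. It had 9.83, 9.35 and 8.30 FPKM in the dsTcAMPKα libraries and 13.9, 14.7 and 11.9 FPKM in the dsEGFP libraries (log2 fold change -0.51, adjusted p = 0.0654). Of the 8 genes, 4 were lower and 1 higher without overlap, against 13.6% and 31.2% of all tested genes.

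Of the ecdysis list, *Eh*, the eclosion hormone gene, had 0.451, 1.27 and 1.48 FPKM in the dsTcAMPKα libraries and 3.26, 2.92 and 2.83 FPKM in the dsEGFP libraries. Its adjusted p was 0.0447 and its log2 fold change of -0.99 fell just short of the threshold. It was called with median-ratio scaling (log2 fold change -1.13, adjusted p = 0.0375) and had a log2 fold change of -0.46 after the length correction (adjusted p = 0.412). *Bursa*, a subunit of the tanning hormone bursicon, had 1.03, 1.73 and 1.15 FPKM in the dsTcAMPKα libraries and 5.60, 4.12 and 1.80 FPKM in the dsEGFP libraries (log2 fold change -0.998, adjusted p = 0.0893). Without dsEGFP replicate 3 both were called, *Bursa* at -1.35 (adjusted p = 0.0126) and *Eh* at -1.02 (adjusted p = 0.0378). With the length correction *Bursa* stood at -0.56 (adjusted p = 0.470). With that correction and without dsEGFP replicate 3 neither was called, *Bursa* at -0.957 and *Eh* at -0.48. *Eh* and *Bursa* did not overlap between the groups. *Bursb* of the same list, named after its values were seen, overlapped (log2 fold change -0.15, adjusted p = 0.823).

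In the metamorphosis list, *tai*, a coactivator of the juvenile hormone receptor, had 31.1, 28.8 and 43.1 FPKM in the dsTcAMPKα libraries and 24.3, 18.6 and 4.90 FPKM in the dsEGFP libraries (log2 fold change 1.28, adjusted p = 0.138). *Tcmet*, the juvenile hormone receptor itself, had 34.5, 31.0 and 31.2 FPKM in the dsTcAMPKα libraries and 23.2, 21.2 and 7.82 FPKM in the dsEGFP libraries (adjusted p = 0.121). *Kr-h1*, which acts downstream of that receptor and was picked for mention after its values were seen, had 71.5, 56.3 and 67.8 FPKM in the dsTcAMPKα libraries and 32.5, 29.1 and 41.6 FPKM in the dsEGFP libraries. Its adjusted p was 0.0293 at a log2 fold change of 0.91, under the fold threshold. *Kr-h1* was called without dsEGFP replicate 3 (log2 fold change 1.053, adjusted p = 0.0104), and with the length correction it stood at 0.56 (adjusted p = 0.153).

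Among 14 tested genes of moulting and cuticle formation, 2 were called, both lower, against 2.71% of all tested genes called lower and 6.80% called in either direction (median log2 fold change -0.16). An unadjusted limma p under 0.05 was found for 7 of the 14, against 36.5% of all tested genes. *rtv*, which is needed for chitin organisation, had 2.35, 4.82 and 6.39 FPKM in the dsTcAMPKα libraries and 16.0, 14.0 and 26.2 FPKM in the dsEGFP libraries (log2 fold change -1.86 ± 0.36 SE, limma-adjusted p = 0.0275). *knk*, which protects newly made chitin, had 5.98, 10.5 and 12.6 FPKM in the dsTcAMPKα libraries and 24.7, 19.3 and 18.3 FPKM in the dsEGFP libraries (log2 fold change -1.07 ± 0.28 SE, limma-adjusted p = 0.0458). Neither was called without any single dsTcAMPKα library or without dsEGFP replicate 1 or 2, where adjusted p values lay between 0.0526 and 0.120. Without dsEGFP replicate 3 the list had 4 calls, *rtv* and *knk* lower, and *Th* and *Ddc* higher. The log2 fold changes were then 3.12 for *Th* (limma-adjusted p = 0.0116) and 1.77 for *Ddc* (limma-adjusted p = 0.00978). After the length correction with all libraries, *rtv* and *knk* were not called, with adjusted p values of 0.175 for *rtv* and 0.0760 for *knk*.

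The moulting chitinase *Cht5* was named after its values were seen. It was listed at 0, 26.9 and 11.8 FPKM in the dsTcAMPKα libraries and had 119.9, 72.0 and 119.0 FPKM in the dsEGFP libraries, without overlap and without a call (adjusted p = 0.0650 from limma). *Th* and *Ddc* of the same list, also named after their values were seen, went the other way, without a call with all 6 libraries. *Th* had 287, 159 and 506 FPKM in the dsTcAMPKα libraries and 36.2, 27.9 and 174 FPKM in the dsEGFP libraries. Its groups overlapped (limma-adjusted p = 0.0764). *Ddc* had 85.1, 83.3 and 133.7 FPKM in the dsTcAMPKα libraries and 29.3, 26.8 and 80.5 FPKM in the dsEGFP libraries. Its groups did not overlap (limma-adjusted p = 0.0896).

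**Figure D4:**
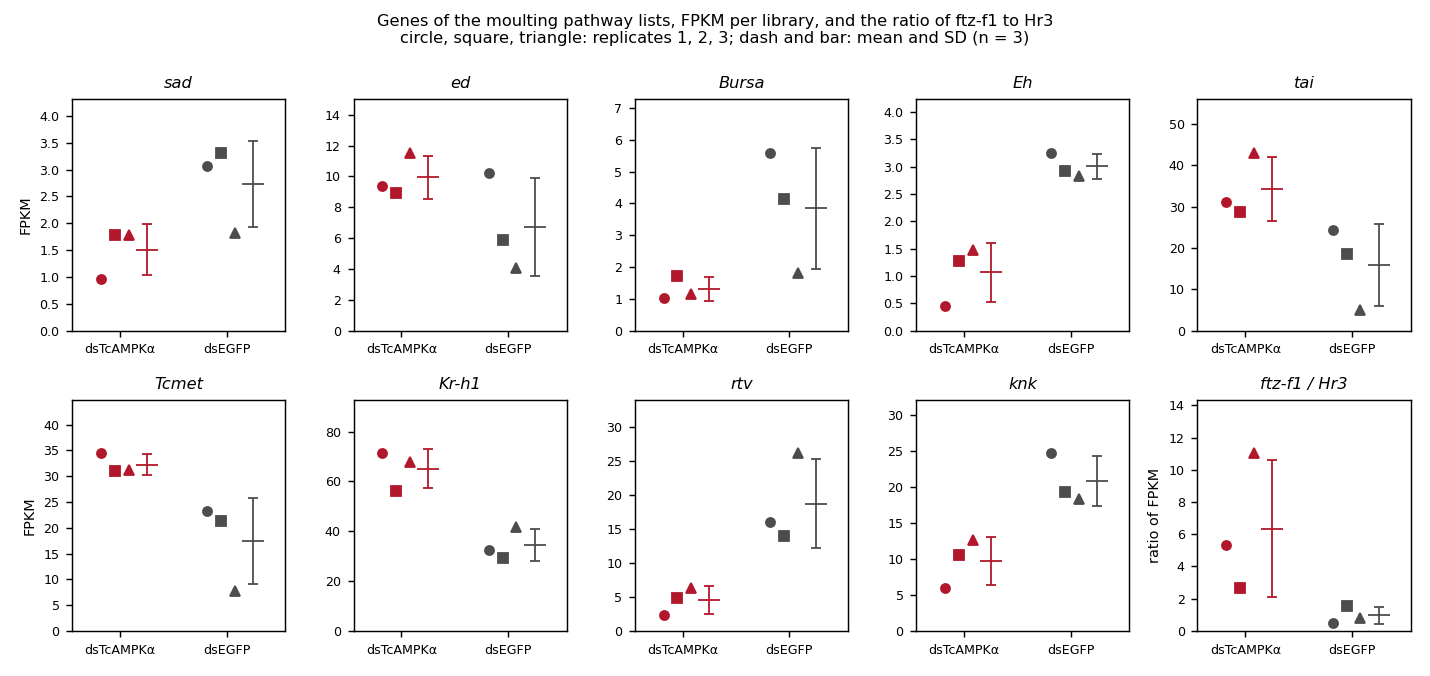
FPKM (vertical axes) of 9 genes from the pathway lists, and the ratio of ftz-f1 to Hr3 FPKM in the last panel, in dsTcAMPKα libraries (red, left) and dsEGFP libraries (grey, right), with the mean and SD. The called genes rtv and knk, and Bursa, Eh and sad, are lower in every dsTcAMPKα library than in any dsEGFP library, while tai, Tcmet, Kr-h1 and the ratio are higher.

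Markers of larval tissues were measured in the same libraries, and their part in the results was not tested. The summed fat body markers (2 of 4 matched) ranged from 1180 to 7412 FPKM in the dsTcAMPKα libraries and from 1529 to 6835 FPKM in the dsEGFP libraries. The midgut markers (2 of 2) ranged from 174 to 360 FPKM in the dsTcAMPKα libraries and from 185 to 764 FPKM in the dsEGFP libraries. The epidermis markers (3 of 3) ranged from 213 to 340 FPKM in the dsTcAMPKα libraries and from 181 to 343 FPKM in the dsEGFP libraries. Muscle markers (2 of 2) ranged from 905 to 1222 FPKM in the dsTcAMPKα libraries and from 631 to 1329 FPKM in the dsEGFP libraries, and neuron markers (2 of 3) from 10.7 to 12.9 FPKM in the dsTcAMPKα libraries and from 8.78 to 14.9 FPKM in the dsEGFP libraries. No matched marker was at 0, and all 5 sums overlapped between the groups. However, sums follow their most abundant gene, and some single markers did not overlap between the groups.

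Of the 11 markers, 1 was lower and 3 were higher in every dsTcAMPKα library than in any dsEGFP library. Of all tested genes, 13.6% were lower and 31.2% higher in this way. None of the markers was called with all 6 libraries. The midgut gene *Pmp1-b*, of the peritrophic matrix, had 69.4, 65.5 and 65.3 FPKM in the dsTcAMPKα libraries and 161, 119 and 109 FPKM in the dsEGFP libraries (log2 fold change -0.93, adjusted p = 0.0277). It was called with median-ratio scaling (-1.16, adjusted p = 0.0206) and without dsEGFP replicate 3 (-1.04, adjusted p = 0.0117). The muscle myosin gene *Mhc* had 177, 217 and 239 FPKM in the dsTcAMPKα libraries and 134, 135 and 90.5 FPKM in the dsEGFP libraries (log2 fold change 0.82, adjusted p = 0.0475), and with the length correction it stood at -0.059 (adjusted p = 0.870). The neuronal gene *brp* (log2 fold change 0.62, adjusted p = 0.0875, and -0.18 with the length correction) and the epidermal chitin deacetylase gene *Cda1* (0.56, adjusted p = 0.134) were the other two whose groups did not overlap.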

How the data were processed

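RNA-Seq of 6 libraries was used, with groups taken from the sample labels. The authors used HISAT2 for alignment to Tcas5.2 and StringTie for assembly, and deposited 2 values of every transcript, FPKM and coverage, where coverage is a signal of reads per base. Versions are not given in the sources used here. FPKM were summed by gene name. Genes and transcripts with a mean of at least 1 went into limma 3.58.1 (R 4.3.3) as log2(FPKM + 1) (trended variance, Benjamini-Hochberg adjustment over all tested), and every adjusted p value is limma's. Single values were compared with exact two-sided permutation tests in Python 3.11.15.

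Estimated reads (coverage multiplied by length, divided by a read length of 150 nt) were between 33518139 and 37584930 per library, and between 53 and 9483 per factor and library. They carry no counting interval, so the spread between 3 libraries is the precision stated. Nothing in the labels says that samples share larvae, and p values measure the spread between these samples.

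For the length correction, a lowess trend (span 0.4) of log2 deviation on transcript length was subtracted per library. The alternatives were the pseudocount, the filter, the scaling (median-ratio, quantile, TPM), the length correction, limma-voom, the most abundant transcript, a replicate block and leaving out each library. Annotated transcripts alone, the counts over the 12 factors and their transcripts, and the length correction without dsEGFP replicate 3 were added after seeing the data. Members and lists were chosen with earlier results of these data known. Named genes were every factor, the called genes of each list or else its 2 largest changes, *Snf1a*, and the profiles most like that of the member with the larger SD. Identifiers were matched to symbols through RefSeq gene names of another assembly (icTriCast1.1), whose coordinates were not used, and no sequence was used here.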

Additional observations from a re-analysis of the deposited data

How the results depend on the processing

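*Hr3* had a negative log2 fold change in all 18 alternatives (-2.65 to -1.23, adjusted p 0.0199 to 0.110), and *E78* and *Hr4* in the 17 run for each. Both genes found by name stayed without a call throughout. For the other values below, the cause was not tested.

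The count of the 12 factors called, 2 as reported, was 1 under the stricter filter (mean FPKM from 5), the length correction, limma-voom, the most abundant transcript or annotated transcripts only, 3 with median-ratio scaling, quantile normalization, or the length correction without dsEGFP replicate 3, and 0 to 2 with 1 library left out. For all genes the count of 747 was 1619 with TPM, 121 with the length correction, and 0 to 1198 with 1 library left out. For all transcripts the count of 468 was 247 with a pseudocount of 0.1, 215 with no filter, 1367 with TPM, 132 with the length correction, 3 with limma-voom, and 5 to 1632 with 1 library left out. Of the factor transcripts, 1 was called as reported, 0 with no filter, the stricter filter, the length correction or limma-voom, 2 with TPM, and 0 to 4 with 1 library left out. For *Ecr* and *Usp* transcripts the count of 0 was 0 to 1 with 1 library left out.

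The sample labels carry no replicate numbers, and those used here follow accession order and the sample names in the study. With that number as a replicate block, 13 genes, 0 transcripts, 0 of the 12 factors and 0 of their transcripts were called. Deviations of same-numbered libraries correlated at -0.09, 0.24 and 0.09, and 3 of 6 libraries correlated best with their own number, so the numbers were not taken to pair the samples.

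Log2 fold changes that turned sign were those of uncalled genes. With median-ratio scaling and with quantile normalization they were -0.039 and -0.027 for *Ecr*, -0.013 and -0.031 for *E74*, and -0.22 and -0.13 for *br*. With the length correction, and with it and without dsEGFP replicate 3, they were -0.39 and -0.53 for *Ecr*, -0.40 and -0.58 for *E74*, -0.33 and -0.43 for *E75*, -0.50 and -1.13 for *br*, -0.47 and -0.65 for *Hr38*, -0.12 and -0.22 for *Hr39*, -0.19 and -0.34 for *ed*, -0.059 and -0.076 for *Mhc*, and -0.18 and -0.15 for *brp*. With both together they were also -0.24 for *Usp*, -0.042 for *tai* and -0.0057 for *Tcmet*. With the most abundant transcript only, they were -0.90 for *Ecr* and -0.43 for *br*. *E93* was at 0.0092 with a pseudocount of 0.1, 0.18 with TPM, 0.016 with limma-voom and 0.29 with annotated transcripts only. With 1 library left out, *E74* lay between -0.083 and 0.53, *br* between -0.62 and 0.61, *Hr38* between -0.024 and 0.52 and *E93* between -0.52 and 0.35, and the share of rna10622 in *Usp* differed by -2.35 to 0.14 percentage points.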
